A study of Mus musculus with 12 samples.

Results

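In induced regulatory-type T cells, 401 regions of the mouse genome held runs of at least 5 neighbouring Bach2 peaks. These dense clusters, called chains here, were chosen by the measured peak positions. Peak midpoints were ordered along each chromosome, neighbours at most 12500 bp apart were joined, and runs of 5 or more peaks were kept. The 401 chains took in 2579 of 22494 peaks (11.5%) and 143684 ChIP tags, which is 13.9% of all tags in peaks. They overlapped the bounds of 367 of the 23700 gene loci listed in the RNA files.

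The cells were CD4+ T cells of C57BL/6J mice, taken from lymph nodes and spleen, sorted as naive cells and, except for the naive library, stimulated for 3 days through CD3 and CD28 with 10 μg/ml of each plate-bound antibody. RNA was measured in 3 Bach2KO and 3 wild type (WT) libraries of the induced regulatory condition (iTreg), which adds 5 ng/ml TGF-β1 and 100 IU/ml IL-2, and in 1 WT library each of naive, Th1, Th2 and Th17 cells. The Th1, Th2 and Th17 cultures received IL-12, IL-4, or IL-6 with TGF-β1, along with 10 μg/ml neutralizing antibody, and the iTreg cultures received none. Bach2 ChIP was made in 1 WT iTreg library against 1 input, so that the chains come from a single library with no replicate, and neither the deleted segment of Bach2 nor the age of the animals is in the labels. The labels do not say that replicates came from separate animals or cultures, so p-values measure only the spread between these samples, which may be technical.

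Bach2, a basic leucine zipper protein of the CNC family, represses transcription. It pairs with small Maf proteins on DNA elements that contain the same core as sites of the activator AP-1, and in CD4+ T cells it is known for restraining effector programmes and for favouring regulatory T cell induction. Long stretches in which many binding sites of regulatory proteins lie close together are known to be common around genes that define a cell type. Chromatin marks were not analysed here, so the chains are runs of Bach2 peaks and nothing more.

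The DNA under the peaks shows what the chains are made of. The first set holds the 101 bases centred on the summit of the peak with the highest fold enrichment in 4 of the 10 chains with the most peaks, on the plus strand of mm9. Capitals mark the AP-1 type core TGANTCA, read on both strands.
Chd2, chr7:80697039-80697139: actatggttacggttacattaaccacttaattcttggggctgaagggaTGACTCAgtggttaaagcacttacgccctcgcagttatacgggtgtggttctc
Inpp4b, chr8:84280679-84280779: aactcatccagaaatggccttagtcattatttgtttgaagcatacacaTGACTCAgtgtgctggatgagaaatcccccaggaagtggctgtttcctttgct
Il2ra start, chr2:11564146-11564246: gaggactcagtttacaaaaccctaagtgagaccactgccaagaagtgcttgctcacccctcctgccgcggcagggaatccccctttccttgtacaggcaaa
Ets1, chr9:32538336-32538436: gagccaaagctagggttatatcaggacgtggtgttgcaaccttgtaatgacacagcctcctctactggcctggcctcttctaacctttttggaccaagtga
In the chains at Chd2 and Inpp4b the centre of the core lay 1 bp from the peak summit. The windows at the Il2ra start and in Ets1 held no TGANTCA, although these peaks had fold enrichments of 48.04 and 70.6, which says only that these letters were not in these windows. Of the windows not printed, those of the chains at Bach2, Atxn1, Ankrd11, Thada and Nfkb1 held none either. The window at Gm14005 held the core 36 bp from the summit. The printed windows therefore show the core more often than the 10 as a whole.

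The second set is the highest-fold peak that did hold the core, in chains at 8 genes described below. These windows were chosen for the core, so its presence in them is no result.
Bach2, chr4:32478353-32478453: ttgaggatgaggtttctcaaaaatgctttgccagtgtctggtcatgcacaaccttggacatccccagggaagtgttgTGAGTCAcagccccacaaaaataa
Ankrd11, chr8:125554159-125554259: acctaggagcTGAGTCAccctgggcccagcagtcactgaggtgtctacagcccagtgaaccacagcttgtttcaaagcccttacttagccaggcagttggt
Nfkb1, chr3:135346563-135346663: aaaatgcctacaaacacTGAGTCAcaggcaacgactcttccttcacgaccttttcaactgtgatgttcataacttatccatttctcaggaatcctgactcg
Il2ra, chr2:11556770-11556870: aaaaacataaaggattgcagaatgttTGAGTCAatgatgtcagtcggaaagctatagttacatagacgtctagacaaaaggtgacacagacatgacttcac
Ctla4, chr1:60917577-60917677: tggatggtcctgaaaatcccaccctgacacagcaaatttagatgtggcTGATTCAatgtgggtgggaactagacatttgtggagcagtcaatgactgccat
Tcf7, chr11:52075576-52075676: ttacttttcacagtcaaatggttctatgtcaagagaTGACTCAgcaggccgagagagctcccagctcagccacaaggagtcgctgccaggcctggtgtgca
Prdm1, chr10:44168450-44168550: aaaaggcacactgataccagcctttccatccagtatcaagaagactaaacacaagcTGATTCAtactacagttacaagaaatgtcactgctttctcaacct
Cish, chr9:107215241-107215341: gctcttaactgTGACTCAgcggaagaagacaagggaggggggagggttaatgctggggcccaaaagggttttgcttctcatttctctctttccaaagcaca
Beyond these examples, TGANTCA occurred in the 201 bases around the summit of 38.1% of the 2579 peaks in chains, 42.8% of the 9821 peaks in runs of 2 to 4 and 44.7% of the 10094 single peaks. Over all 22494 peaks the share was 43.1%, and in windows of the same length 2000 bp away it was 4.92% beside chain peaks and 5.52% beside all peaks. Peaks in chains thus held the core less often than single peaks, while both stood far above their flanks. The longer element GCTGAGTCA, which contains the core with the extra bases of a Maf half-site, was in 7.41% of chain peaks, 13.2% of single peaks and 11.5% of all peaks. The letters TGTGGTT, bound by RUNX factors, were in 10.0% of chain peaks and 9.44% of single peaks (5.68% beside chain peaks). The ETS-type letters CAGGAAGT were in 6.17% of chain peaks and 5.44% of single peaks (1.53% beside chain peaks). The TCF/LEF-type letters TTCAAAG were in 6.17% of chain peaks and 5.06% of single peaks, against 4.60% beside chain peaks and 4.75% beside single peaks. All were searched on both strands.

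Within a chain the core was not uniform. It was in 45.6% of the peaks with the most tags of their chain, in 41.4% of the second, 40.1% of the third and 34.4% of the fourth or later. Chain peaks with the core had a median fold enrichment of 14.8, against 11.3 for chain peaks without it. Peaks within 1000 bp of an annotated start held it in 20.7% of cases, intronic peaks in 37.8% and intergenic peaks in 42.1%. Of the 401 chains, 382 (95.3%) had at least 1 peak with the core.

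Number, span, density and tags of chains follow from how they were selected and are given as a description, with no test. A chain held a median of 6 peaks (5 to 21), spanned a median of 25343 bp (5398 to 97709 bp) and carried a median of 313 tags (71 to 1371). Exactly 5 peaks were found in 189 chains and 10 or more in 26. Just inside the threshold, the chains of 5 peaks had a median of 232 tags over 19824 bp. Just outside it, the 416 runs of 4 peaks had 188 tags over 15137 bp. Neighbouring peaks within chains were a median of 4006 bp apart, while all neighbouring peaks were a median of 24597 bp apart.

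Individual peaks in chains were wider and held more tags than isolated ones, with nearly the same median fold enrichment. The median chain peak had 37 tags, a fold enrichment of 12.3 over local background and a width of 680 bp, against 24 tags, 12.8-fold and 545 bp for single peaks. The authors' FDR was at most 5% for 92.1% of chain peaks and 87% of single peaks. Chain peaks lay in introns in 52.1% of cases, between genes in 39.0%, within 1000 bp of a start in 7.29% and in exons in 1.51%. Single peaks lay in introns in 42.5%, between genes in 42.6% and near a start in 11.8%. In 128 of the 401 chains at least 1 peak was near a start. The peak with the most tags was intronic in 187 chains, intergenic in 164, near a start in 43 and exonic in 7, and it carried a median of 34.8% of its chain's tags.

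**Figure D1:**
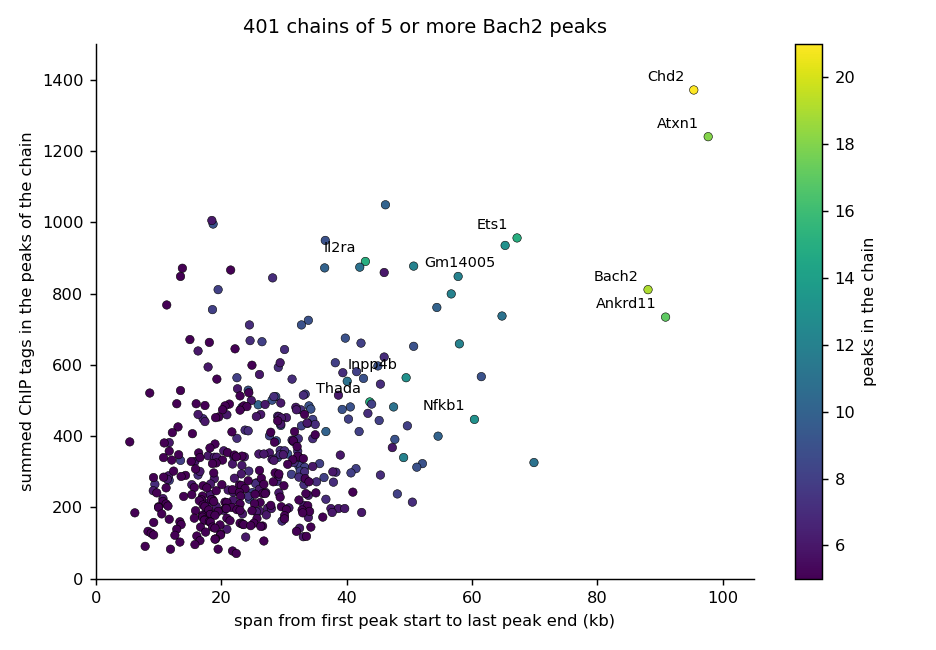
Span of each chain in kb (x axis) against the ChIP tags summed over its peaks (y axis). Each point is 1 of the 401 chains, coloured by its number of peaks, and the 10 chains with the most peaks carry the name of their gene. The chains at Chd2 (21 peaks, 1371 tags) and Atxn1 (18 peaks, 1240 tags) are the longest and most tagged.

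The plot of span against tags shows 4 long chains, at Chd2, Bach2, Atxn1 and Ankrd11, apart from all others. The largest by peaks was at Chd2, a chromatin remodeller, with 21 peaks over 95.4 kb and 1371 tags, of which 14 peaks were intergenic. The second lay inside the annotated Bach2 gene, with 19 intronic peaks over 88.1 kb and 811 tags. Atxn1, a nuclear regulator known from spinocerebellar ataxia, had 18 intronic peaks over 97.7 kb and 1240 tags. Ankrd11, a chromatin regulator, shared a chain of 17 peaks over 90.9 kb with the locus 2810013P06Rik.

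The next chains were at 2 genes central to T cells and at less studied ones. Ets1, a transcription factor of T cell development, had 15 peaks and 956 tags over 67.2 kb. Il2ra, the high-affinity receptor chain for IL-2 (CD25), had 15 peaks and 890 tags packed into 43.0 kb, or 3.49 peaks per 10 kb. Thada had 15 peaks and 496 tags over 43.7 kb. The predicted locus Gm14005 had 13 peaks and 935 tags, with 51.9% of the tags in 1 peak. Inpp4b, a phosphoinositide phosphatase, had 13 peaks and 564 tags, and Nfkb1, which encodes an NF-κB subunit, had 13 peaks and 447 tags in this chain and 7 peaks and 844 tags in another.

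Several chains often belonged to 1 neighbourhood. With a gap of at most 100 kb between chains, a distance set after the chains were seen, 82 of the 401 chains fell into 37 groups of 2 or more. The group with the most chains covered 306.8 kb of chromosome 1 and held the costimulatory receptor genes Cd28, Ctla4 and Icos, with 5 chains of 8, 9, 5, 8 and 7 peaks, 42 peaks in the whole span and 1854 tags in the chains. The Bach2 group held 3 chains of 5, 8 and 19 peaks over 163.6 kb and 2158 tags. The peak with the most tags there, 618 tags at a fold enrichment of 77.61, lay 11.1 kb downstream of the most upstream annotated start. Foxp1, a forkhead factor that maintains quiescence in naive T cells, held 3 chains of 8, 5 and 11 peaks over 173.0 kb by its bounds in the RNA files. In the gene annotation the chain of 11 peaks overlapped Eif4e3 and not Foxp1. Its middle lay 127823 bp from the nearest annotated Foxp1 start.

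**Figure D2:**
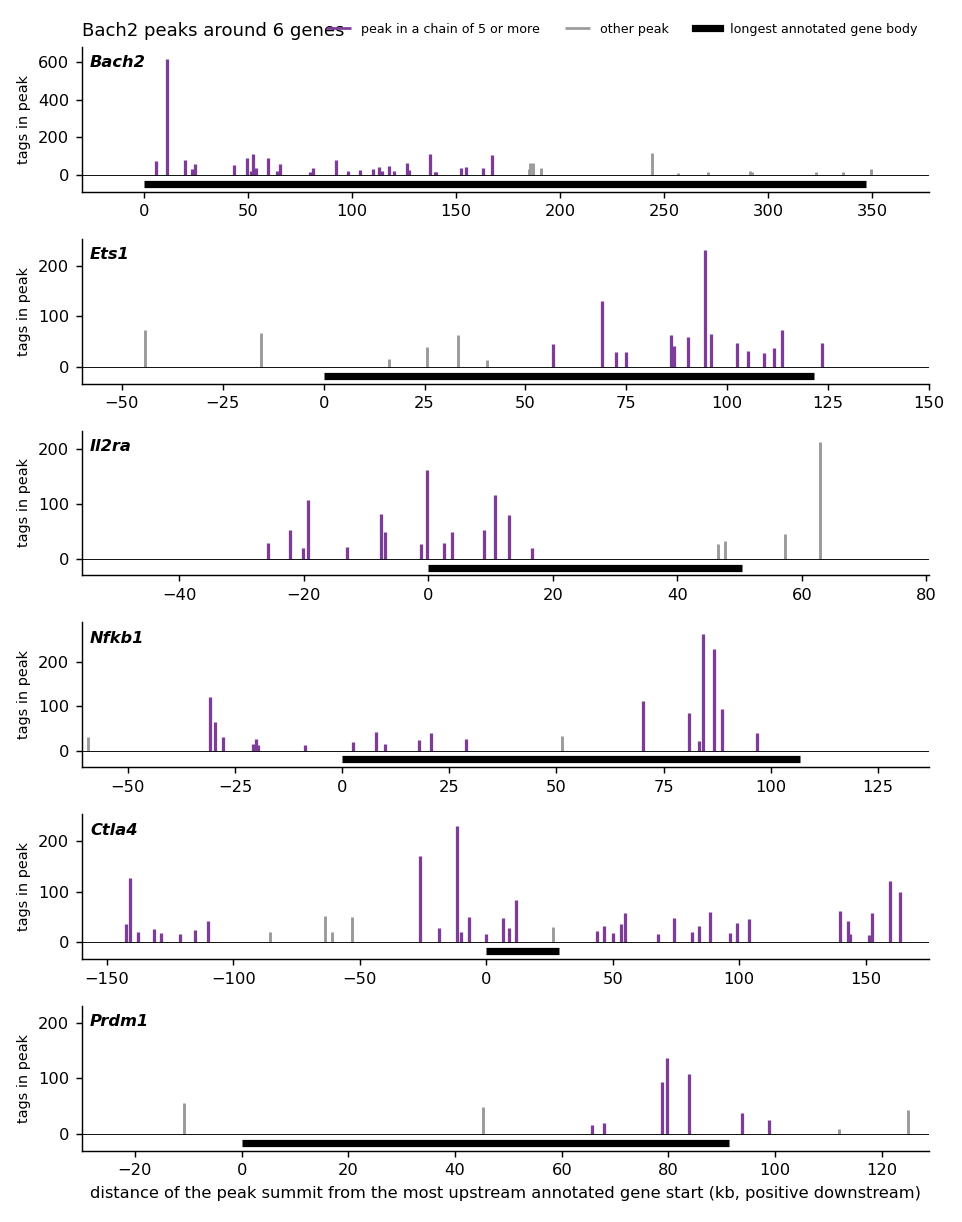
Bach2 peaks around 6 genes by the distance of the summit from the annotated gene start in kb (x axis, positive downstream) and the tags in the peak (y axis). Purple lines are peaks in chains, grey lines other peaks and black bars the annotated gene. Bach2 holds all 3 of its chains downstream of its start, while the chain peaks at Prdm1 lie toward the end of the longest annotated form.

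The maps show how differently the chains sit on their genes. At Bach2 all 32 chain peaks were inside the annotated gene, downstream of its most upstream start. They ended before chr4:32504410, where the shorter Bach2 locus of the RNA files begins, so that Bach2 is not among the 367 loci. At Il2ra they lay on both sides of the start, with the peak of most tags (161) at the start. At Nfkb1 one chain surrounded the start and the other lay near the end of the gene. At Prdm1, which encodes Blimp-1, the 7 peaks lay toward the end of the longest annotated form and around the shorter locus of the RNA files (chr10:44156981-44178493), which held 3 of them. At Ctla4 the chain ran from upstream into the longest annotated form and stopped short of the locus of the RNA files.

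Some chains need care. A chain at chr9:3018236-3036914 had 9 peaks and 995 tags, but no peak in it exceeded a fold enrichment of 8.99, the lowest maximum of the 401 chains. It covers predicted genes with near-identical names (Gm10717, Gm10718, Gm10719) and overlapped no locus of the RNA files. The smallest chain, 5 peaks in 5398 bp, was at Tnfrsf26, a member of the TNF receptor superfamily.

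For the RNA, reads implied by the deposited confidence intervals were summed over detected loci with a single transcription start. These sums leave out loci with several starts, so they are not library totals. They came to between 20.05 and 24.03 M in Bach2KO and between 18.24 and 19.13 M in WT iTreg libraries, and to between 12.4 and 18.5 M in the other 4. Summed FPKM was higher in Bach2KO (545183 to 553892) than in WT iTreg (432450 to 437849), which bears on every difference below. Marker genes of T cells (6 of 6 above 1 FPKM) summed to between 1598.5 and 1719.8 FPKM in Bach2KO and between 1594.1 and 1620.1 FPKM in WT. Their members went both ways. Cd3e (154.8 FPKM in Bach2KO, 223.9 FPKM in WT), Cd3d (202.9 and 276.6 FPKM) and Lck (289.4 and 425.3 FPKM) were lower in Bach2KO. Thy1, itself under a chain of 9 peaks, was higher (521.3 and 206.6 FPKM). Cd3g and Cd4 were not called in the fit described below. Foxp3, the defining factor of regulatory T cells, was 11.1 ± 7.56 FPKM in Bach2KO and 72.5 ± 7.60 FPKM in WT iTreg (SD, n = 3 each), and between 0.226 and 1.35 FPKM in the other 4 libraries. B cell markers, 5 of 6 above 1 FPKM in both genotypes, summed to between 12.7 and 19.0 FPKM in Bach2KO and between 11.2 and 60.9 FPKM in WT, and none of the 6 was overlapped by a chain. Among 5 myeloid markers found, only Itgam passed 1 FPKM, at 0.143 FPKM in Bach2KO and 3.70 FPKM in WT, and Lyz2 was listed at 0 in all 3 WT libraries. Markers of CD8, NK and gamma-delta T cells went both ways. Cd8a was 2.23 FPKM in Bach2KO and 0.0925 FPKM in WT, and Cd8b1 was 9.19 FPKM in Bach2KO and 4.91 FPKM in WT. Klrd1 was 1.64 FPKM in Bach2KO, 4.37 FPKM in WT and 23.1 FPKM in Th17 cells. Ncr1 was at 0 in Bach2KO and 0.0583 FPKM in WT. The part of these other cell types in the results was not tested.

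The genes under chains were mostly genes that iTreg cells use. Of the 367 loci, 293 (79.8%) had a WT iTreg mean of at least 1 FPKM, against 44.2% of all 23700 loci, and their median level was 15.5 FPKM. The share was 74.4% for loci with runs of 2 to 4 peaks and no chain, and 64.3% for loci with single peaks only. Chains took in 1.55% of all loci and 2.80% of those at 1 FPKM or more. Chain loci were also long, with a median of 47370 bp against 14460 bp for all loci, and a long locus has more room for an overlap. Loci with runs of 2 to 4 peaks had a median of 39540 bp and those with single peaks only 38360 bp, so neither trait is particular to chains. Of the 401 chains, 258 overlapped exactly 1 locus and 93 none, and 17 loci held 2 or more chains. The 367 loci include 7 microRNA or snoRNA loci and 34 predicted or Riken loci. Another locus of the RNA files overlapped 54 of them, and since the strand used in counting is not stated, values of overlapping loci are uncertain. This holds for Scd2, Dock2, Rora, St8sia1 and Glb1 below. Outside the 367 loci it holds for Bach2 and Foxp3.

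By fixed lists of T cell genes, chains overlapped 16 of 66 transcription factors and regulators (24.2%), 6 of 39 cytokines, chemokines and their receptors (15.4%), 10 of 32 surface receptors (31.2%) and 14 of 39 signalling genes (35.9%). The lists were written with earlier results of these data known, so these shares are a description.

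Among 329 chain loci that reached 1 FPKM in at least 1 condition, 89 (27.1%) were highest in Bach2KO iTreg, against 20.9% of 11795 such loci in all. Another 56 (17%) were highest in WT iTreg, against 22.1% of all. The naive library was highest for 48 (14.6%, against 12%), Th1 for 34 (10.3%, against 16.3%), Th2 for 47 (14.3%, against 15.9%) and Th17 for 55 (16.7%, against 12.8%). With 1 library per helper condition these orders have no spread and no test.

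The comparison of Bach2KO with WT iTreg cells asks how genes lying under dense Bach2 binding differ in RNA when Bach2 is missing, and RNA played no part in choosing the chains. Bach2 RNA itself was 3.91, 3.39 and 4.12 FPKM in Bach2KO, against 17.9, 17.7 and 17.2 FPKM in WT iTreg libraries. The log2 difference was -2.08 (SE 0.0743, adjusted p = 4.4e-06), in the direction the labels give. In bulk RNA, fewer cells of a type and less RNA per cell cannot be told apart.

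Of the 367 chain loci, 324 passed the filter of 0.5 FPKM on average, 41 did not, and 2 had a failed estimate. In Bach2KO 162 of the 324 were higher (50.0%, against 41.1% of all 11403 loci tested) and 117 were lower (36.1%, against 33.6% of all loci), with 45 not called at an adjusted p under 0.05 (limma, Benjamini-Hochberg). Bach2KO and WT values were separate for 160 of the 162 higher and all 117 of those lower. Over all loci tested they were separate for 4670 of the 4682 higher and 3808 of the 3828 lower (41% and 33.4% of the 11403). Separate values are thus not particular to chain loci. The rises were the larger changes, with a median of 1.04 and a range of 0.11 to 4.48 on the log2(FPKM + 0.5) scale, against a median of -0.63 and a range of -2.54 to -0.12 for the falls. At least 2-fold, 85 were higher (14.7% over all loci) and 38 lower (7.46% over all loci). The median log2 difference was 0.24 over chain loci and 0.07 over all loci tested, and the median absolute difference was 0.70, against 0.50.

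The direction depended on scaling. With summed FPKM made equal, the median of all loci moved by -0.25 and 130 chain loci were higher and 138 lower (48.5% of chain calls higher, against 58.1% before and 37.8% of calls over all loci). With quantile normalization the median of all loci moved by -0.17 and 140 chain loci were higher and 130 lower (51.9% of chain calls higher, against 43.1% of calls over all loci). Of all loci tested, 32.3% were then higher and 42.6% lower. The chain median lay above that of all loci by 0.15 with equal sums, by 0.14 with quantile normalization and by 0.17 under the authors' scaling.

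Where the chain lay relative to the gene went with the direction. Of 158 tested loci with 5 or more chain peaks inside their bounds, 55 were higher (34.8%) and 79 lower (50.0%), with a median of -0.16. Of 122 with 1 to 4 chain peaks inside, 75 were higher (61.5%) and 33 lower (27.0%). Of 44 that a chain overlapped, some only at an edge, with no midpoint of a chain peak inside, 32 were higher (72.7%) and 5 lower (11.4%), with a median of 1.53. Those 44 loci lay under 24 chains, and 30 of them shared a chain with at least 1 other of the 44, as Tnp2 and Socs1 do, so they are not separate regions. They include 16 Hist1 histone loci under 4 chains, singled out after their values were seen, which were all higher and whose values are uncertain because the genes are near-identical copies. Without them, 16 of 28 were higher.

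**Figure D3:**
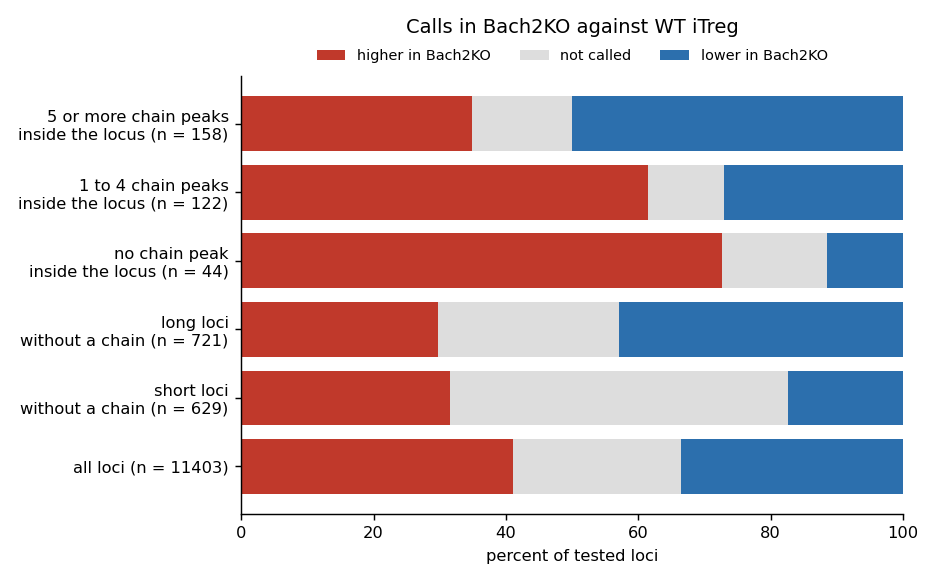
Percent of tested loci (x axis) called higher in Bach2KO (red), not called (grey) or lower in Bach2KO (blue), for chain loci by the number of chain peaks inside the locus, for loci without a chain at the length of the first or the third class, and for all loci. Loci with 5 or more chain peaks inside have 50.0% lower, and those with none inside 72.7% higher.

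These classes differ in length, which the plot of call shares sets beside them. Loci with 5 or more chain peaks inside had a median of 112861 bp, those with 1 to 4 a median of 21718 bp and those with none inside a median of 1818 bp. Among loci without a chain and at least as long as the first median, 29.7% were higher and 42.9% lower (721 tested). Among those without a chain and at most as long as the last, 31.6% were higher and 17.3% lower (629 tested). Long loci thus leaned to lower values with or without a chain, while 72.7% of the loci with no chain peak inside were higher, histone loci included, against 31.6% of short loci without a chain. These 2 classes also differ in how often a locus was called at all. Of the short loci without a chain, with a median of 936 bp, 321 of 629 were not called, against 7 of the 44. The classes were drawn after the values were seen and have no test of their own.

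Level in the helper libraries gave another view that used no iTreg value. Of the chain loci, 68 were at least 2-fold higher in each of Th1, Th2 and Th17 than in naive cells. Of the 66 of them tested, 49 rose in Bach2KO (74.2%) and 6 fell, and over all 1740 such loci 74.2% rose too. In the other direction, 26 chain loci were at least 2-fold higher in naive cells than in each helper library. Of 24 tested, 9 rose (37.5%) and 12 fell (50.0%), while over all 491 such loci 15.5% rose and 62.7% fell. Junb, Dusp2, Dusp5 and Cd69 were among the naive-high chain genes that rose.

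Among the 16 transcription factors and regulators under chains, 6 rose and 10 fell in Bach2KO, with a median of -0.28. Of the 47 tested members of that list without a chain, 23 rose and 15 fell, with a median of 0.32. Over all loci tested, 41.1% were higher and 33.6% lower, with a median of 0.07. The list was written with earlier results known, so its contrast is a description with no test. The rises were led by Prdm1, which encodes the repressor Blimp-1 of terminal effector differentiation. It had 6.84, 3.93 and 7.99 FPKM in Bach2KO, against 0.301, 0.392 and 0.162 FPKM in WT iTreg libraries, a log2 difference of 3.06 (SE 0.261, adjusted p = 1.1e-04). All 3 Bach2KO libraries stood above every WT library, and above the 4 other libraries too, of which Th1 was highest at 1.74 FPKM.

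AP-1, growth and NF-κB genes rose as well. Junb, an AP-1 subunit, had 167.0, 155.1 and 169.0 FPKM in Bach2KO, against 33.0, 29.9 and 36.3 FPKM in WT (log2 difference 2.29), and was highest in naive cells at 737.4 FPKM. Myc, the growth regulator, rose by 1.52 with a wide spread in Bach2KO (66.5, 106.8 and 49.9 FPKM, against 23.6, 22.1 and 27.7 FPKM in WT). Nfkb1, under 2 chains with 20 peaks, had 172.1, 196.1 and 171.1 FPKM in Bach2KO, against 82.5, 75.8 and 85.1 FPKM in WT (log2 difference 1.14, SE 0.0732). The ETS-family factor Fli1 rose by 0.57. Rora, a retinoid-related receptor of the Th17 programme, passed at a log2 difference of 0.42 with overlapping genotype values (adjusted p = 0.0425), and lost its call under 7 other settings.

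The factors that fell include those of naive and early T cells. Tcf7, which encodes TCF-1, had 226.7, 164.8 and 240.6 FPKM in Bach2KO, against 584.8, 604.6 and 554.7 FPKM in WT iTreg (log2 difference -1.48, SE 0.145, adjusted p = 1.9e-04). Its levels in naive and Th17 cells, 635.4 and 719.8 FPKM, lay near those of WT iTreg, and those in Th1 and Th2 cells, 93.0 and 69.7 FPKM, under those of Bach2KO. Its partner Lef1 fell by 0.75 and Foxp1 by 0.82, with Foxp1 at 28.2, 31.4 and 27.6 FPKM in Bach2KO and 53.2, 50.7 and 51.2 FPKM in WT. Tox, a nuclear factor of T cell development and exhaustion, under 2 chains, fell by 1.29. Ets1 fell by 0.38, Ikzf3 by 0.28, Smad3 by 0.27, Nfe2l2 by 0.48 and Stat5b by 0.23. Stat5b lost its call without any 1 WT library, and Ikzf3 without WT replicate 2.

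The largest fall among these factors was in Smad7, the inhibitory Smad induced by TGF-β. It had 15.8, 15.7 and 13.7 FPKM in Bach2KO, against 66.7, 69.9 and 63.6 FPKM in WT iTreg (log2 difference -2.11, SE 0.0696, adjusted p = 3.5e-06). The genotypes were far apart, and the naive library was highest at 74.7 FPKM. Its chain had 9 peaks, 652 tags and 1 peak near a start.

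**Figure D4:**
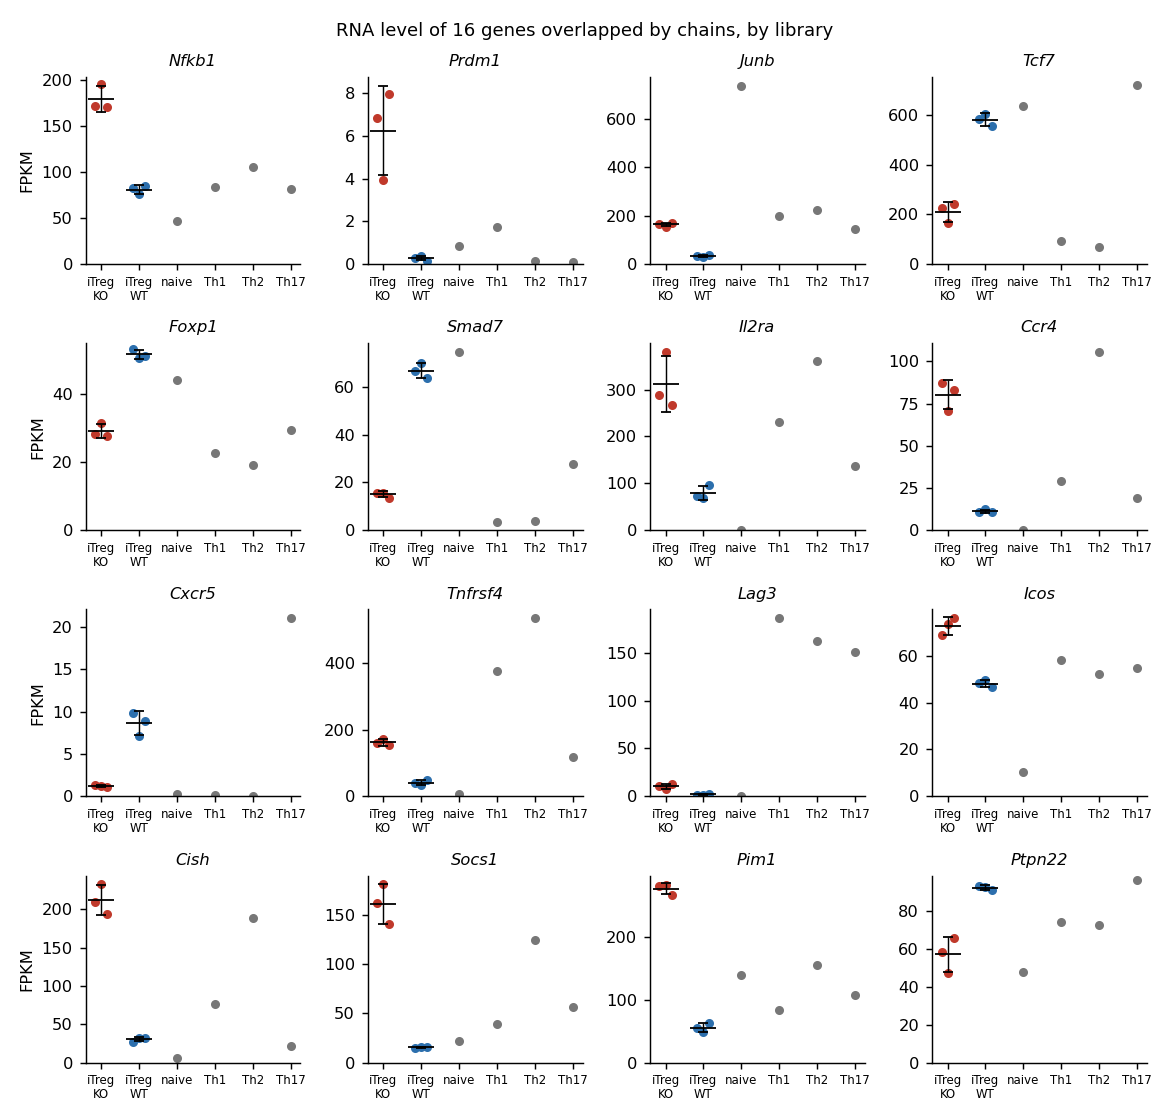
FPKM (y axis of each panel, from 0) of 16 genes overlapped by chains, in 3 Bach2KO iTreg libraries (red), 3 WT iTreg libraries (blue) and 1 library each of naive, Th1, Th2 and Th17 cells (grey). Bars give the mean and SD of the 3 libraries of a genotype. Prdm1, Socs1 and Pim1 are higher in Bach2KO than in any other library, while Tcf7, Foxp1, Smad7, Cxcr5 and Ptpn22 are lower in Bach2KO than in WT iTreg.

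Of the 6 cytokine and chemokine genes and receptors under chains, 3 rose, 2 fell and 1 did not pass; the median log2 difference was 0.50. Of the 29 tested members of that list without a chain, 19 rose and 7 fell, with a median of 1.75. The shares over all loci tested were 41.1% higher and 33.6% lower. The panels of levels by library show the rises. Il2ra had 287.9, 379.8 and 268.2 FPKM in Bach2KO, against 72.2, 68.0 and 95.5 FPKM in WT iTreg (log2 difference 1.98, SE 0.178, adjusted p = 1.3e-04), and 0.647 FPKM in naive cells. The sequences printed above for this gene are those of a peak at its start and of an intergenic peak 7599 bp from it. Ccr4, a chemokine receptor of Th2 and regulatory cells, had 87.1, 70.4 and 83.1 FPKM in Bach2KO, against 10.7, 12.3 and 10.6 FPKM in WT (log2 difference 2.78), and reached 105.4 FPKM in Th2 cells. Its chain of 11 peaks also covers Glb1, which rose by 0.98. Il21r, the IL-21 receptor, rose by 0.65.

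Both falls were in receptors that guide cells within lymphoid tissue. Ccr7, which directs naive cells to lymph nodes, had 178.5, 185.1 and 173.0 FPKM in Bach2KO, against 454.4, 459.6 and 447.4 FPKM in WT (log2 difference -1.34, SE 0.0419). Cxcr5, which directs cells to follicles, had 1.27 ± 0.127 FPKM in Bach2KO and 8.64 ± 1.38 FPKM in WT (SD, n = 3 each, log2 difference -2.36). It was at 21.0 FPKM in Th17 cells and under 0.3 FPKM in naive, Th1 and Th2 cells. Il7r, the IL-7 receptor chain, was 95.9 ± 24.4 FPKM in Bach2KO and 73.6 ± 5.55 FPKM in WT (SD, n = 3 each) and was not called (adjusted p = 0.15), although it passed as higher without Bach2KO replicate 2 (log2 difference 0.57).

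Of the 10 surface receptors under chains, 6 rose and 4 did not pass under the authors' scaling; the median log2 difference was 0.80. Of the 21 tested members of that list without a chain, 8 rose and 9 fell, where 41.1% of all loci tested were higher and 33.6% lower. The neighbours Tnfrsf4 (OX40) and Tnfrsf18 (GITR), costimulatory receptors of activated and regulatory T cells, share 1 chain of 5 peaks. Tnfrsf4 had 159.8, 173.9 and 154.7 FPKM in Bach2KO, against 41.2, 35.6 and 48.4 FPKM in WT (log2 difference 1.96), and Tnfrsf18 rose by 1.22. Both were highest in Th2 cells, at 535.8 and 520.6 FPKM.

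The inhibitory receptors Havcr2 (TIM-3) and Lag3 started from low levels. Havcr2 had 5.03, 4.92 and 4.66 FPKM in Bach2KO, against 0.0251, 0 and 0.0122 FPKM in WT, and no more than 0.0737 FPKM in the other 4 libraries, a log2 difference of 3.39 that the pseudocount of 0.5 FPKM understates. Lag3 had 10.4 ± 2.73 FPKM in Bach2KO and 2.03 ± 0.111 FPKM in WT (SD, n = 3 each, log2 difference 2.08), both far below the 150.8 to 185.7 FPKM of the helper libraries. Lag3 shares its chain of 6 peaks with Cd4, which was 169.0 ± 23.1 FPKM in Bach2KO and 146.8 ± 8.34 FPKM in WT and not called (adjusted p = 0.143, n = 3 each, limma). Without Bach2KO replicate 2, Cd4 passed as higher (log2 difference 0.30).

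In the costimulatory cluster on chromosome 1, Icos rose by 0.59 (68.6, 73.4 and 75.9 FPKM in Bach2KO, against 48.2, 49.7 and 46.4 FPKM in WT). Cd28 was 89.0 FPKM in Bach2KO and 74.8 FPKM in WT and was not called (adjusted p = 0.188), but passed as higher without Bach2KO replicate 2 (log2 difference 0.39). Ctla4, the inhibitory member of the cluster, was 170.7 ± 50.0 FPKM in Bach2KO and 131.6 ± 17.4 FPKM in WT and was not called either (adjusted p = 0.209, n = 3 each, limma). Pdcd1 (PD-1) was 15.5 FPKM in Bach2KO and 18.8 FPKM in WT, and Tnfrsf1b (TNF receptor 2) 48.8 FPKM in Bach2KO and 48.3 FPKM in WT, neither called. Pdcd1 passed as lower with summed FPKM made equal (log2 difference -0.54) and with quantile normalization (-0.42). Cd69, an early activation marker, rose by 1.00 (32.3, 55.5 and 24.1 FPKM in Bach2KO, against 18.4, 15.4 and 18.2 FPKM in WT), a call lost without any 1 WT library and with equal summed FPKM.

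Of the 14 signalling genes under chains, 9 rose, 4 fell and 1 did not pass; the median log2 difference was 0.65. Of the 25 tested members without a chain, 12 rose and 8 fell, with a median of 0.10. Among all loci tested, 41.1% were higher and 33.6% lower. The clearest rises were in feedback inhibitors of cytokine signalling. Socs1 had 161.6, 181.2 and 140.6 FPKM in Bach2KO, against 14.8, 15.5 and 16.1 FPKM in WT (log2 difference 3.33, SE 0.0959, adjusted p = 2.3e-06). Cish, with a chain of 6 peaks and 1005 tags, had 209.8, 232.4 and 193.1 FPKM in Bach2KO, against 27.4, 31.8 and 31.7 FPKM in WT (log2 difference 2.78). In the helper libraries both were highest in Th2 cells, at 124.6 and 187.9 FPKM.

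Kinases and phosphatases went both ways. Pim1, a kinase induced by cytokines, had 280.4, 283.2 and 266.9 FPKM in Bach2KO, against 54.8, 49.1 and 62.5 FPKM in WT (log2 difference 2.32). The MAP kinase phosphatases Dusp5 and Dusp2 rose by 2.54 and 0.92, the survival gene Bcl2 by 0.92, Elmo1 by 0.81 and Spred2 by 0.49, and Spred2 lost its call with summed FPKM made equal (0.24). Inpp4b passed at a log2 difference of 0.19, and its direction turned to -0.08 with summed FPKM made equal and to -0.03 with quantile normalization. Genes of antigen receptor signalling fell: Ptpn22, a phosphatase that dampens it, by 0.70, Prkcq (PKCθ) by 0.54, Ptprc (CD45) by 0.44 and Dock2 by 0.38. Prkca was 14.7 FPKM in Bach2KO and 14.1 FPKM in WT and was not called.

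Of the loci in the 10 chains with most peaks, 5 rose and 6 fell, where 41.1% of all loci tested were higher and 33.6% lower. Beside Il2ra, Nfkb1 and Inpp4b, Gm14005 rose by 3.95 and Atxn1 by 0.90. Beside Ets1, 2810013P06Rik fell by 1.30, Thada by 1.25, Ankrd11 by 0.59, 1810026B05Rik by 0.51 and Chd2 by 0.36. Gm14005 had 22.1, 18.2 and 21.7 FPKM in Bach2KO, against 1.02, 0.771 and 0.809 FPKM in WT iTreg, and 4.28 FPKM at most in the other 4 libraries. Chd2 and 1810026B05Rik overlap each other, so their values are uncertain.

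The 10 largest rises, by the rule that named them, were Egln3 (4.47), Tnp2 (4.30), Scd2 (4.29), Uhrf1 (3.85), Cdk6 (3.82), Adam8 (3.66), Tnf (3.47), Sema7a (3.35), Socs1 and Prdm1. Egln3, an oxygen-sensing prolyl hydroxylase, had 116.5, 101.4 and 146.6 FPKM in Bach2KO, against 4.39, 5.03 and 5.42 FPKM in WT, and 292.5 FPKM in Th1 cells. Scd2, a fatty acid desaturase, had 302.8, 240.9 and 353.0 FPKM in Bach2KO, against 14.3, 12.4 and 17.6 FPKM in WT. Uhrf1, which maintains DNA methylation, and Cdk6, a cell cycle kinase, also stood at or above 37.8 and 16.1 FPKM in all 3 helper libraries. Tnf shares its chain with Lta and Ltb, the lymphotoxin genes, which rose by 2.57 and 0.78. Tnp2, a spermatid protein gene next to Socs1 under the same chain, had 21.9 FPKM in each Bach2KO library, against 0.549, 0.746 and 0.624 FPKM in WT.

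The 10 largest falls were Cd101 (-2.54), Cxcr5, Smad7, Ube2f (-1.90), Galnt10 (-1.82), St8sia1 (-1.68), Wdyhv1 (-1.62), Btg1 (-1.62), Itga6 (-1.60) and D18Ertd653e (-1.59). Cd101, an immunoglobulin-type surface protein, had 10.5, 9.77 and 9.42 FPKM in Bach2KO, against 60.3, 63.7 and 56.2 FPKM in WT. It was high in Th17 cells too, at 68.7 FPKM, and at most 3.06 FPKM in naive, Th1 and Th2 cells. Ube2f, a NEDD8-conjugating enzyme, had 15.2 ± 2.22 FPKM in Bach2KO and 57.7 ± 4.64 FPKM in WT (SD, n = 3 each). Btg1, an antiproliferative gene, had 89.1, 86.2 and 78.2 FPKM in Bach2KO, against 266.2, 262.2 and 251.6 FPKM in WT, with 352.9 FPKM in naive cells. One chain joined a fall and a rise: Wdyhv1 fell, while Atad2 in the same chain rose by 0.91 (39.9 ± 1.69 FPKM in Bach2KO, 21.1 ± 0.696 FPKM in WT, SD, n = 3 each).

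The 93 chains with no locus of the RNA files were assigned to a gene of the RNA files whose annotated body held them (10 chains) or otherwise to the nearest annotated start (83 chains). Some annotated gene was overlapped by 23 of the 93. Their middles were a median of 50909 bp from a start and 22 were over 100 kb away. Of 86 distinct genes so found, 67 were tested, of which 34 were higher (50.7%, against 41.1% of all loci tested), 22 lower (32.8%, against 33.6%) and 11 not called. Some of them, such as Myc, Icos, Dusp5, Ets1 and Inpp4b, also had another chain over their own locus. Their calls are thus counted among the chain loci too, and the shares are not from a separate set. The nearest start need not be the gene that a chain acts on.

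Among genes of these chains, chosen after their values were seen, Lif, a cytokine of the IL-6 family, had 19.4 ± 10.0 FPKM in Bach2KO and 0.113 ± 0.0668 FPKM in WT (SD, n = 3 each, log2 difference 4.91). Atp2b4, a calcium pump, had 24.5 ± 4.78 FPKM in Bach2KO and 1.28 ± 0.268 FPKM in WT (SD, n = 3 each). Cd47, the signal that protects cells from phagocytosis, lay 60757 bp from a chain of 12 peaks and had 145.8, 143.0 and 159.7 FPKM in Bach2KO, against 68.8, 64.4 and 71.0 FPKM in WT. S1pr1, which lets T cells leave lymph nodes, had chains on both sides within 40 kb and had 90.0, 60.8 and 86.3 FPKM in Bach2KO, against 277.1, 276.0 and 270.9 FPKM in WT (log2 difference -1.81). Il6st, the shared receptor chain of the IL-6 family, fell by 2.18 and Tgfbr2, a TGF-β receptor, by 1.01. Lif, Il6st and Tgfbr2 were assigned only as the nearest start, with the middles of their chains 72593, 42369 and 154923 bp away.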

How the data were processed

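RNA was measured in 10 libraries and Bach2 binding in 1 ChIP library with 1 input, whose own values were not used here. Per the labels' protocols, unique 50-bp reads were aligned to mm9 with TopHat and Cufflinks; no version or annotation is given in the sources used here. The deposited values are FPKM per the file headers, although the file extension names RPKM, which had been assumed. FPKM is scaled by transcript length and library size. Per the file headers, the authors called peaks with MACS 1.4.0beta (p-value cutoff 1e-05) from 8992019 ChIP and 9999999 input tags, and deposited for each peak a tag count, a score (10 times the −log10 of the p-value), a fold enrichment (a ratio to local background) and an FDR in percent. Alignment of the ChIP reads was by Bowtie per the submitters' processing notes.

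Peaks were joined at 12.5 kb between midpoints. A locus belonged to a chain when its bounds shared at least 1 bp with it, from first peak start to last peak end. Gene starts, exons and sequence came from GENCODE vM1 and the NCBIM37 genome, the same build. The comparison used limma (version 3.58.1, R 4.3.3, eBayes with trend) on log2(FPKM + 0.5), 3 Bach2KO against 3 WT iTreg, for 11403 loci with a mean of at least 0.5 FPKM. P-values were two-sided and adjusted by Benjamini-Hochberg over all loci, at 0.05. Loci with a failed estimate in an iTreg library (72) were left out. On this scale the change of low genes is understated. The fit was tested on simulated data. Counts could not be recovered from FPKM (71.0 to 77.1% of low genes gave whole reads within 0.02), so no count test was run. No test was made over peaks, between single libraries, or over lists.

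Named genes are the loci of the 10 chains with most peaks, the 10 rises and 10 falls of largest size among called chain loci with separate replicates and a higher mean of at least 5 FPKM (small RNA, Gm and Rik loci left out), Bach2, and chain members of 4 lists; others are said to be chosen after their values were seen. The members and lists were chosen with earlier results of these data known.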

Additional observations from a re-analysis of the deposited data

How the results depend on the processing

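The chains depend on how peaks are joined. A join distance of 5 kb left 73 chains with 416 peaks and 63 loci, of which 32 were higher and 20 lower in Bach2KO (median 0.51), and 20 kb gave 731 chains with 5006 peaks and 839 loci, 335 higher and 266 lower (median 0.14). A minimum of 4 peaks gave 817 chains, 4243 peaks and 707 loci, 285 higher and 231 lower (median 0.16), and a minimum of 6 gave 212 chains, 1634 peaks and 207 loci, 93 higher and 69 lower. A score of at least 100 left 83 chains, 479 peaks and 81 loci, 44 higher and 30 lower (median 0.51), and an FDR of at most 5 percent moved the median to 0.32. Requiring the midpoint of 1 chain peak inside the locus moved the median to 0.15. Requiring 5 left 169 loci with 55 higher and turned the median to -0.16. Distances between peak edges, and leaving out the 1 chain with a highest fold enrichment under 10, chosen after seeing the data, kept all of these values within 1.5 times.

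For RNA, the median of chain loci turned to -0.03 with equal summed FPKM and was 0.05 with quantile normalization and 0.17 with no filter. Leaving out 1 iTreg library gave between 152 and 171 chain loci higher, between 106 and 120 lower, a median between 0.22 and 0.27, and between 7722 and 8601 calls over all loci, against 8510. Same-numbered replicates did not visibly deviate together (r = -0.038, -0.039 and 0.005). Such correlations cannot settle whether the numbers pair samples. With replicate number as a block 158 chain loci were higher and 109 lower. Among named genes, Inpp4b turned to -0.08 and Tnfrsf1b to -0.27 with equal summed FPKM, and Inpp4b to -0.03 with quantile normalization; the cause was not tested. Depth limits genes under about 0.5 FPKM, and 1 ChIP library gives no spread for any chain.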
